A study of Rattus norvegicus with 6 samples.

Results

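ATF4 (activating transcription factor 4) and 9 genes of the integrated stress response, taken as a list of symbols, were followed in crushed and intact rat sciatic nerves. All 10 symbols matched a single row each of the 30957 genes counted, and all 10 were among the 12393 genes that passed the filter on low counts. RNA came from 3 crushed sciatic nerves and from 3 uninjured contralateral nerves, described as biological replicates. Adult male Sprague-Dawley rats were used, and the methods place collection at 4 days after the crush, whereas the sample labels give no time point. Rats were anesthetized with pentobarbital sodium and the crush was made with forceps, no transgene was involved, and the samples taken from crushed nerves were proximal stumps. For each nerve the number of reads on every gene was deposited without normalization, with 24844371 to 27139360 counts per nerve.

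The integrated stress response starts when a kinase such as PERK, GCN2, PKR or HRI phosphorylates the translation factor eIF2α. General translation then falls, while the mRNA of ATF4 is translated better. ATF4 switches on genes for amino acid supply and, under lasting stress, a further set that includes the factor CHOP (Ddit3). ATF4 protein is set largely at translation, which RNA-seq does not measure, so that the mRNAs of its targets are the usual readout in such data. In nerve, Schwann cells use the PERK and ATF4 branch when folding of myelin proteins fails.

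The labelled tissue was checked against its markers. Of 10 Schwann cell markers 5 had at most 3 counts in every nerve, among them Mbp and Sox10 (0 to 1 counts each), whereas Pmp22 had 821 to 968. Of 8 macrophage and leukocyte markers 5 were at this level as well, and 3 of them had no count at all. The proliferation gene Mki67 had 37037 to 43837 counts per nerve. The defining markers of myelinating nerve were thus at or near 0 in crushed and intact samples alike, and the samples are called nerves here only as the labels do. In nerve tissue, fewer cells of a type and less RNA per cell cannot be told apart. Intact nerve 1 stood apart from the other intact nerves, with chi-square statistics divided by their degrees of freedom of 12.0 and 12.4 against them, compared with 4.76 between intact nerves 2 and 3 and 3.38 to 7.65 within the crushed nerves. All pairs differed by more than sampling noise.

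None of the 10 genes differed between crushed and intact nerves at an adjusted p under 0.05 in edgeR's quasi-likelihood test, the level reached by 3.12% of all genes tested. Nor did any meet the limits of the study's methods, an absolute log2 fold change above 1 with a p under 0.001, which 0.282% of genes met. At an unadjusted p under 0.05 there were 2 of the 10, Chac1 and Sesn2, both lower in crushed nerves, against 16.2% of all genes in either direction and 9.50% in that direction. DESeq2 gave 1 of the 10, Chac1, at an adjusted p under 0.05, a level that 4.47% of the 11343 genes with an adjusted p in that tool reached, and 2.57% as lower in crushed nerves. The fitted log2 fold changes lay between -0.26 and 0.01, with a median of -0.07 compared with -0.0017 over all genes tested. Their 95% intervals, which rest on the spread between nerves, together reached from -0.43 to 0.20, and 8 of the 10 included 0. In 9 of the 10 genes the fitted value was below 0, against 50.6% of all genes tested, and this number was 8 to 10 when any 1 nerve was left out.

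**Figure D1:**
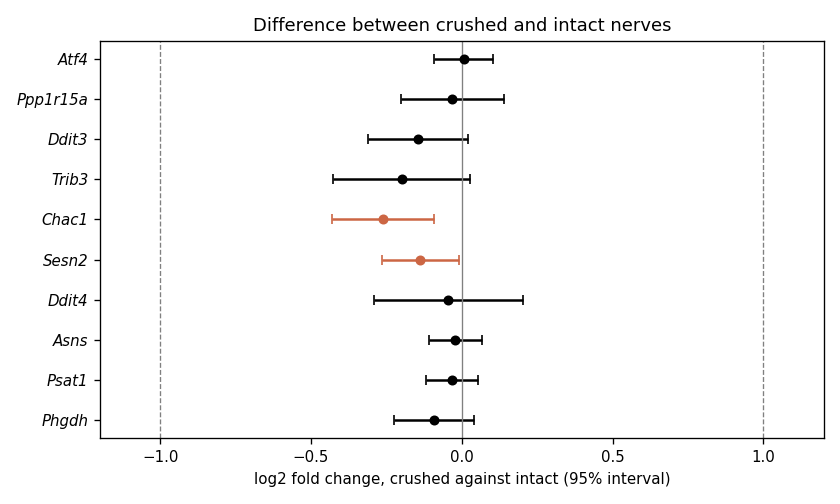
Log2 fold change of each gene in crushed against intact nerves (x axis), with its 95% interval from edgeR's quasi-likelihood test as a bar; dashed lines mark the fold change limit of the study's methods, 1 in either direction. All 10 intervals lie inside these lines, and those of Chac1 and Sesn2, in colour, do not include 0.

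Atf4, the hub of the response, stood at nearly the same level in both groups. It lies on chromosome 7 from 121480723 to 121482781 (Rnor_6.0), and is listed as ENSRNOG00000017801. In CPM, that is counts put on a common library size, it was at 272, 269 and 248 in intact nerves 1, 2 and 3 and at 268, 266 and 257 in crushed nerves 1, 2 and 3. The crushed values fell inside the range of the intact ones. The log2 fold change was 0.01 with a 95% interval from -0.09 to 0.10, that is from -6.27% to 7.53% (adjusted p = 0.967, edgeR's quasi-likelihood test). Its sign was not stable, with values from -0.03 to 0.04 when 1 nerve was left out (0.04 without intact nerve 1). Ppp1r15a (GADD34, chromosome 1 from 101511901 to 101514974, identifier ENSRNOG00000020938) brings protein phosphatase 1 to eIF2α and so ends the response. It had 53.2, 45.7 and 43.7 CPM in the intact and 49.6, 45.1 and 44.8 CPM in the crushed nerves. Nerve 1 was the highest of each group and the groups overlapped. Ppp1r15a differed by -0.03 on the log2 scale (95% interval -0.20 to 0.14, adjusted p = 0.881), and without intact nerve 1 it was 0.06.

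The stress effectors Ddit3, Trib3 and Chac1 and the mTORC1 inhibitor Sesn2 were the 4 genes in which all crushed nerves lay below all intact nerves. Groups did not overlap in 23.0% of all genes tested, and in 12.2% the crushed nerves were the lower group. An exact two-sided permutation test gave p = 0.1 for each of these 4, the smallest value that 3 nerves against 3 allow. Groups without overlap always give this value, so the test adds nothing to the separation itself. Chac1 encodes an enzyme that breaks down glutathione and lies on chromosome 3 from 111160205 to 111163425, identifier ENSRNOG00000014387. It had 83.5, 67.4 and 73.5 CPM in the intact and 62.6, 66.0 and 58.4 CPM in the crushed nerves. Intact nerve 1 was the highest by a wide margin, while intact nerve 2 was only slightly above crushed nerve 2. Chac1 had a log2 fold change of -0.26 (standard error 0.0767, 95% interval -0.43 to -0.09), or 16.6% lower on the fitted scale, with an adjusted p = 0.109 from edgeR and an adjusted p = 0.0369 from DESeq2. Over all 12 alternatives its adjusted p ranged from 0.0369 to 0.316. Without intact nerve 1 the fitted value was -0.17 (adjusted p = 0.203).

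Ddit3 encodes CHOP, a transcription factor tied to cell death under stress of the endoplasmic reticulum, and lies on chromosome 7 from 70580198 to 70585084, identifier ENSRNOG00000006789. Its levels were 24.7, 21.1 and 22.3 CPM in the intact nerves. In the crushed nerves they were nearly equal, at 20.5, 20.7 and 20.5 CPM. The difference in Ddit3 was -0.14 on the log2 scale (95% interval -0.31 to 0.02, adjusted p = 0.382), and -0.07 without intact nerve 1. Trib3, a pseudokinase that CHOP and ATF4 induce and that dampens both, lies on chromosome 3 from 147813473 to 147819571, identifier ENSRNOG00000007319. Trib3 had 13.4, 13.5 and 13.0 CPM in the intact and 12.8, 12.0 and 9.86 CPM in the crushed nerves. Crushed nerve 3 was the low sample, and the other crushed nerves were close to the intact ones. For Trib3 the fitted difference on the log2 scale was -0.20 (95% interval -0.43 to 0.03, adjusted p = 0.374), and -0.10 without crushed nerve 3.

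The promoters of Chac1, Trib3 and Ppp1r15a are shown because they were the ones among the 10 that held either motif searched here. Other forms of ATF family sites were not searched. A pair of motifs was searched on both strands, the core of the C/EBP-ATF response element (TGATGNAA), which ATF4 binds together with a C/EBP partner, and the cAMP response element (TGACGTCA), which is its own reverse complement; the letters of neither hold the other. All 10 genes matched a RefSeq promoter of the GRCr8 assembly, from 250 bases before the start of the gene to 50 after it. The first motif was found in 2 of the 10 and in 3.98% of all 33469 promoters, the other in 1 of the 10 and in 1.83%. The 250 bases before each start are printed 5′ to 3′ on the strand of the gene, with the match in capitals.
Chac1, GRCr8 chr3:126795881-126796130, plus strand: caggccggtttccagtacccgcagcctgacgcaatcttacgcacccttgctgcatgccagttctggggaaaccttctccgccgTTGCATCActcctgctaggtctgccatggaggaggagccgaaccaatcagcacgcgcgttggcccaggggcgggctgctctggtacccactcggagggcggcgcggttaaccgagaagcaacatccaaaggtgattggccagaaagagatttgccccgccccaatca
Trib3, GRCr8 chr3:161275534-161275783, minus strand: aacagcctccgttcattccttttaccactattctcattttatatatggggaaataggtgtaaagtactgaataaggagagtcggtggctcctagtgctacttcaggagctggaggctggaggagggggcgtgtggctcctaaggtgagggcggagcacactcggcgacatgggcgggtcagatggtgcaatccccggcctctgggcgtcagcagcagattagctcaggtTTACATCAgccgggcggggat
Ppp1r15a, GRCr8 chr1:105139597-105139846, minus strand: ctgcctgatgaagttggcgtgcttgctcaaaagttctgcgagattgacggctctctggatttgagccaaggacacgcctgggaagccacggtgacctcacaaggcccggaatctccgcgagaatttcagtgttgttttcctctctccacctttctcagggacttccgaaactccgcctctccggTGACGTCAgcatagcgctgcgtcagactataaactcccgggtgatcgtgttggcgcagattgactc
In Chac1 the match begins 167 bases before the start and reads TGATGCAA on the opposite strand. In Trib3 it begins 21 bases before the start and reads TGATGTAA on the opposite strand. In Ppp1r15a the cAMP response element begins 66 bases before the start. Such a match describes the letters and not binding. Both genes with the C/EBP-ATF core were among those with no overlap, but so were Ddit3 and Sesn2, which have no match in this window.

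Sesn2 and Ddit4 both restrain mTORC1, the kinase complex that couples amino acids and growth factors to growth. Sesn2 (sestrin 2, a leucine sensor, chromosome 5 from 150684133 to 150704117, identifier ENSRNOG00000042785) had 184, 165 and 155 CPM in the intact nerves. In the crushed nerves it was tightly grouped at 153, 154 and 152 CPM. All intact nerves were higher, but intact nerve 3 by little. Sesn2 had a fitted log2 fold change of -0.14 (95% interval -0.26 to -0.01, adjusted p = 0.273), and without intact nerve 1 it was -0.06 (adjusted p = 0.502). Ddit4 (REDD1, chromosome 20 from 29509289 to 29511382, identifier ENSRNOG00000057078), also known as a target of hypoxia and glucocorticoids, had the fewest reads of the set, 176 to 227 per nerve. It had 8.06, 8.57 and 7.10 CPM in the intact and 8.31, 6.96 and 7.74 CPM in the crushed nerves. The groups overlapped fully but for crushed nerve 2, the lowest of all. Its log2 fold change of -0.05 had an interval of -0.29 to 0.20 (adjusted p = 0.884), so that smaller differences in either direction were not detectable at this depth and number of nerves.

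In the amino acid branch all 3 genes had overlapping groups. Asns, which makes asparagine and lies on chromosome 4 from 33743364 to 33761163, identifier ENSRNOG00000007546, had 159, 160 and 161 CPM in the intact and 161, 160 and 152 CPM in the crushed nerves. Only crushed nerve 3 lay below the intact range. Its log2 fold change of -0.02 had an interval from -0.11 to 0.07, or -7.32% to 4.68% (adjusted p = 0.836). Phgdh catalyses the first step of serine synthesis and lies on chromosome 2 from 200484246 to 200513564, identifier ENSRNOG00000019328. Phgdh stood at 49.5, 52.7 and 52.0 CPM in the intact and 45.2, 51.2 and 48.3 CPM in the crushed nerves. Crushed nerve 1 was the lowest, and crushed nerve 2 lay within the intact range (log2 fold change -0.09, interval -0.22 to 0.04, adjusted p = 0.491). Psat1, the enzyme of the next step, lies on chromosome 1 from 233124092 to 233145941, identifier ENSRNOG00000013971. Psat1 was at 281, 298 and 286 CPM in the intact and 286, 279 and 282 CPM in the crushed nerves, and the groups overlapped. For Psat1 the log2 fold change was -0.03 (interval -0.12 to 0.05, or -7.83% to 3.79%, adjusted p = 0.737). Asns and Psat1 had the narrowest intervals of the 10 genes.

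**Figure D2:**
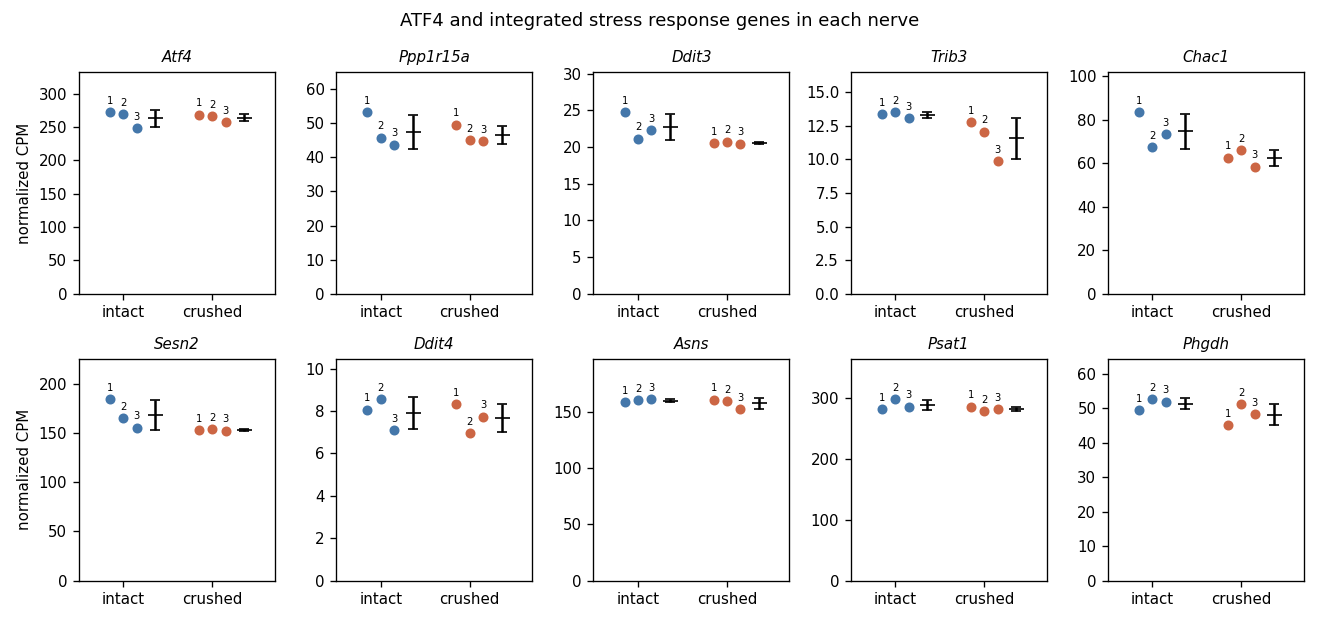
Normalized CPM of the 10 genes in each nerve (y axis, from 0), with the number of the nerve above each point and the mean ± SD of the 3 nerves of a group as a black bar. Chac1, Ddit3, Trib3 and Sesn2 have all crushed points below all intact points, and in the other 6 genes the groups overlap.

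Per unit of gene length, as the deposited FPKM values (fragments scaled to gene length and library total) give it, Atf4 was the highest of the set. It had an FPKM of 185 ± 8.59 in intact and 188 ± 4.13 in crushed nerves (SD, n = 3 each), above 97.0% of the genes tested in both groups. In intact nerves Psat1 followed with 89.7, then Asns with 61.6, Chac1 with 47.4, Sesn2 with 44.7, Phgdh with 28.3, Ddit3 with 14.3, Ppp1r15a with 11.2, Trib3 with 6.83 and Ddit4 with 4.57 FPKM. Chac1 and Sesn2 were the only neighbours in this order whose ranges overlapped. In crushed nerves the order of the levels was the same except that Sesn2 (41.1) and Chac1 (39.9) changed places, again with overlapping ranges. The length behind the FPKM values was 4224 bases for Ppp1r15a, longer than its span of 3074 bases in the table, so its place in the order is uncertain.

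Taken as a set, the 10 genes had a spread between nerves close to that of all genes tested, with no matching for expression level. The standard deviation of log2 CPM around the group means had a median of 0.0851 over the 10 genes and 0.0913 over all genes tested. It was lowest in Asns (0.0312) and Psat1 (0.0330) and highest in Trib3 (0.139), Ddit4 (0.132) and Chac1 (0.126). Intact nerve 1 was the highest of all 6 nerves in 5 genes, Atf4, Ppp1r15a, Ddit3, Chac1 and Sesn2, and the lowest in none. Crushed nerve 3 was the lowest of all 6 in 5 genes and the highest of its group in none. In each of the 4 genes with no overlap crushed nerve 3 was the lowest of all, and in 3 of them intact nerve 1 was the highest. These counts cover the 10 genes only and have no share over all genes tested beside them. Intact nerve 1 also stood apart from the other intact nerves over genes at large, as given above.

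**Figure D3:**
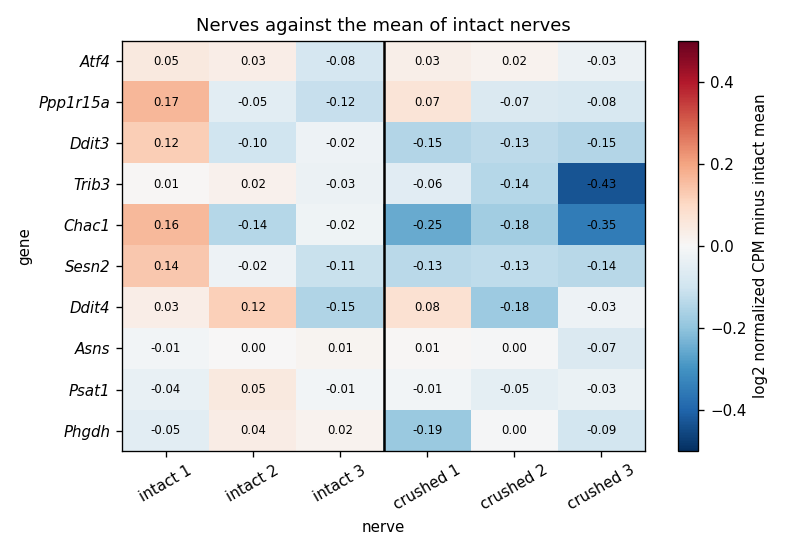
Log2 normalized CPM of each gene (rows) in each nerve (columns) minus the mean of the 3 intact nerves, written in each cell and coloured red above and blue below that mean. The lowest cells are Trib3 and Chac1 in crushed nerve 3, and the rows of Asns and Psat1 are nearly blank.

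Marker lists of other cells moved between the groups as well. The summed level of the 6 smooth muscle and pericyte markers was 20.9 to 23.9 CPM in intact and 14.7 to 17.0 CPM in crushed nerves, and that of the 6 fibroblast markers 185 to 199 and 163 to 181 CPM. For the 10 Schwann cell markers these sums were 65.3 to 70.3 and 62.8 to 62.9 CPM. In each of these lists 1 marker passed an adjusted p of 0.05, lower in crushed nerves (Pdgfrb, Col1a1 and Erbb3), and no marker of any list passed as higher. The fibroblast marker Pdgfra differed by 0.19 on the log2 scale (adjusted p = 0.166), and the Schwann cell marker Pmp22 by 0.03. For the 6 endothelial markers the sums were 1.13 to 1.90 CPM in intact and 1.88 to 2.47 CPM in crushed nerves, and those tested, Kdr (0.42) and Vwf (0.49), did not pass. The sums for the 8 macrophage and leukocyte markers overlapped, at 3.79 to 5.53 and 3.92 to 5.89 CPM, and no marker of theirs passed the test. The proliferation markers had 2851 to 3066 and 2722 to 2855 CPM. The part of these differences between marker levels in the lower values of Chac1, Ddit3, Trib3 and Sesn2 was not tested.

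Beyond the 10 genes, 99 genes were listed in 9 groups of upstream, partner and target genes, paralogs of the 10 and genes of the other arms of the unfolded protein response, and 89 of them passed the filter on low counts. Among these 1 was higher and 1 lower in crushed nerves at an adjusted p under 0.05, compared with 1.47% higher and 1.65% lower among all genes tested. The median log2 fold change of the 89 was -0.03. At an unadjusted p under 0.05 there were 18 of the 89, 7 higher and 11 lower, beside 16.2% of all genes tested, 6.71% higher and 9.50% lower. Targets such as Fgf21, Nupr1 and Slc7a3 had too few counts to be tested, and Bbc3 and Ddit4l were not analysed here.

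Upstream, none of the 4 eIF2α kinases passed the test, with log2 fold changes between -0.04 and 0.09. Eif2ak2 (PKR) stood at 89.4 ± 3.50 CPM in intact and 90.9 ± 1.31 CPM in crushed nerves, and Eif2ak4 (GCN2) at 91.0 ± 5.32 and 88.6 ± 5.35 CPM (SD, n = 3 each). None of the 10 eIF2 and eIF2B subunits and phosphatase partners passed either, with values between -0.04 and 0.10. The most abundant were Ppp1cc, a catalytic subunit of protein phosphatase 1, at 578 ± 19.9 and 618 ± 30.6 CPM, and Eif2s3, the γ subunit of eIF2, at 391 ± 20.8 and 401 ± 20.8 CPM. In neither list did a gene have an unadjusted p under 0.05 in edgeR's test.

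The factors that pair with ATF4 were the most variable group. Of 6 tested, Cebpd, a C/EBP factor induced by inflammatory cytokines, was higher in crushed nerves. Cebpd had 125, 80 and 79 counts in the intact and 156, 179 and 166 counts in the crushed nerves, and the groups did not overlap. On the log2 scale Cebpd was higher by 0.76 (95% interval 0.37 to 1.15, adjusted p = 0.0448 from edgeR), and by 1.02 without intact nerve 1 (adjusted p = 0.00256). The call was lost in 8 of 12 alternatives, including the replicate block (adjusted p = 0.0804) and every fit that left out a nerve other than intact nerve 1, and over all alternatives the adjusted p ranged from 0.00256 to 0.152. Atf5, a paralog of Atf4 under the same translational control and singled out after its values were seen, was at 130, 119 and 121 CPM in the intact and 112, 104 and 109 CPM in the crushed nerves. Its log2 fold change was -0.18 with an adjusted p = 0.0805, and it passed in DESeq2 alone, just under the threshold. Atf3, widely used as a marker of nerve injury and also singled out afterwards, had 168, 159 and 183 counts in the intact nerves. In the crushed nerves it had 198, 46 and 33 counts. Crushed nerve 1 was thus at the level of the intact nerves, and the other crushed nerves were far below them. For Atf3 the log2 fold change was -0.95 (95% interval -1.95 to 0.05, adjusted p = 0.341), and without crushed nerve 1 it was -2.14 (adjusted p = 0.000311). Its spread between nerves was larger than that of 99.9% of the genes tested. Cebpb, Cebpg and Jdp2 did not pass the test. In Jdp2 all crushed nerves lay below all intact nerves, as in 12.2% of all genes tested (log2 fold change -0.22, adjusted p = 0.344 from edgeR).

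**Figure D4:**
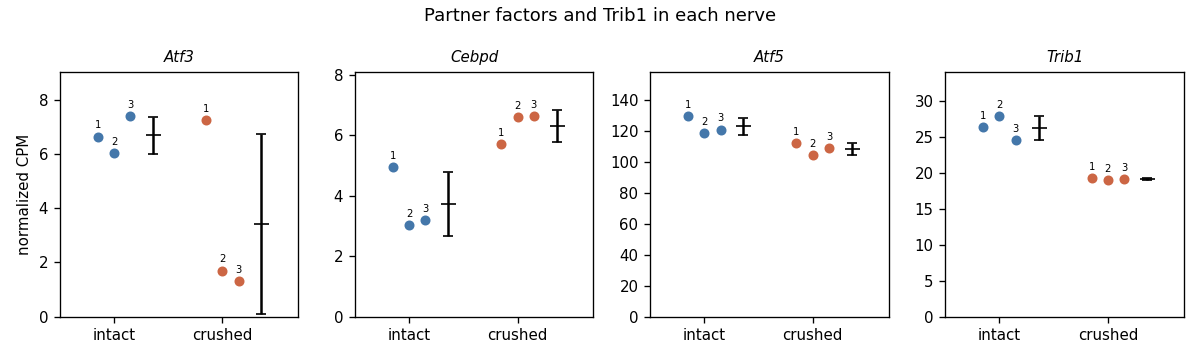
Normalized CPM of Atf3, Cebpd, Atf5 and Trib1 in each nerve (y axis, from 0), with the number of the nerve above each point and the mean ± SD of the 3 nerves of a group as a black bar. In Atf3 crushed nerve 1 sits among the intact nerves and crushed nerves 2 and 3 far below, while Cebpd, Atf5 and Trib1 show no overlap of the groups.

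Among the paralogs of the 10 genes, Trib1, which like Trib3 is a pseudokinase but steers C/EBP proteins to degradation, was lower in crushed nerves. Trib1 had 26.4, 27.9 and 24.6 CPM in the intact and 19.3, 19.0 and 19.1 CPM in the crushed nerves. All crushed nerves were lower and nearly equal. On the log2 scale the difference was -0.46 (95% interval -0.61 to -0.30, adjusted p = 0.00441), and it passed the test in all 12 alternatives (adjusted p from 9.42e-05 to 0.0312). For Trib2, singled out after its value was seen, the log2 fold change was -0.29 (adjusted p = 0.0983, alternatives 0.0328 to 0.299), with no overlap of the groups. Without intact nerve 1 Trib2 passed the test (-0.35, adjusted p = 0.0328). The fitted value of Trib3 lay between 0 and that of Trib1, but its interval of -0.43 to 0.03 overlapped that of Trib1, and the difference between the paralogs was not tested. The other paralogs tested, Sesn1, Sesn3 and Chac2, had values between -0.12 and -0.02 and did not pass.

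Downstream, none of the 8 amino acid transporters, 10 enzymes of serine, one-carbon and amino acid synthesis, 18 aminoacyl-tRNA synthetases or 14 other ATF4 and CHOP targets passed an adjusted p of 0.05 in edgeR's test. At an unadjusted p under 0.05 these lists had 2, 3, 2 and 4 genes, against 16.2% of all genes tested, and their median log2 fold changes were 0.03, -0.05, 0.01 and -0.04. The transporter Slc38a2 stood at 579 ± 11.7 CPM in intact and 603 ± 13.7 CPM in crushed nerves, and Slc7a1 at 198 ± 6.63 and 179 ± 3.03 CPM. Shmt2, the mitochondrial serine hydroxymethyltransferase, was at 254 ± 6.44 and 277 ± 7.08 CPM (log2 fold change 0.13, adjusted p = 0.133). The 3 amino acid enzymes above had fitted values below 0, but their intervals all included 0, and the difference from Shmt2 was not tested. Bcat1, a branched-chain aminotransferase, was at 239 ± 7.98 and 263 ± 9.65 CPM (adjusted p = 0.141). The synthetases Eprs and Aars differed by -0.05 and -0.03 on the log2 scale, and the targets Sqstm1 and Cdkn1a by -0.02 and -0.03. Nor did any of 14 genes of the IRE1 and ATF6 arms of the unfolded protein response pass the test, with 3 at an unadjusted p under 0.05. The chaperone Hspa5 (BiP) had 1023, 933 and 920 CPM in the intact and 875, 876 and 836 CPM in the crushed nerves (log2 fold change -0.15, adjusted p = 0.119). Hsp90b1, the chaperone GRP94, was even at 1326 ± 7.07 and 1308 ± 13.9 CPM.

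**Figure D5:**
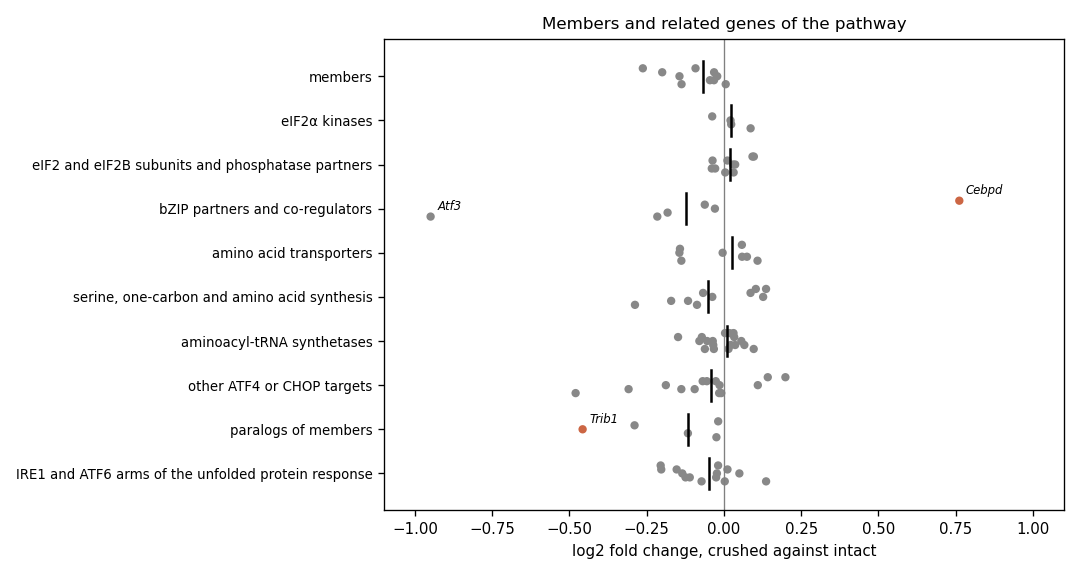
Log2 fold change in crushed against intact nerves (x axis) of the 10 members and of each tested gene of 9 related lists (rows), with the median of each row as a black line and genes with an adjusted p under 0.05 in edgeR's test in colour. Only Cebpd and Trib1 are coloured, Atf3 is labelled as the farthest uncalled gene, and the medians of all rows lie between -0.12 and 0.03.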

How the data were processed

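RNA-seq of 3 crushed and 3 intact rat sciatic nerves was deposited by the authors as raw counts per Ensembl gene, without normalization, and as FPKM values that the authors scaled to gene length and library total. The submitters' processing notes name HISAT2, StringTie 1.3.0 and the build Rnor_6.0, and the counting program is not given in the sources used here. The methods describe rRNA removal and RNase R, an enzyme that digests linear RNA, whereas the labels name neither. Where RNase R was applied, reads on a gene can come from remaining linear RNA or from circular RNA, which these counts do not separate. The methods and the design text differ on the side of the lesion. Each column of values was assigned to its nerve by title, and none was left over.

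Counts were normalized with TMM factors after edgeR's expression filter and compared with edgeR's quasi-likelihood test over all genes (edgeR 4.0.16, R 4.3.3), with Benjamini-Hochberg adjustment, no replicate block and 95% intervals from the test statistic. The calculation was tested on simulated data. The members and all gene lists were chosen with earlier results of these data known. Named were all 10 members and, per list, up to 3 genes passing the test in each direction or, if none passed, the 2 most abundant. Of several rows with the same symbol the one with the most counts was used. The alternatives were DESeq2 (1.42.0), library totals without TMM, no filter, limma (3.58.1) with a trend on log2(FPKM + 0.1) and log2(FPKM + 1), the replicate block and each nerve left out. Counts of up to 3 were taken as not separable from 0, for counting error only. Same-numbered nerves did not deviate together (correlations over genes from -0.00965 to 0.0709), and the labels do not say whether equal numbers share a rat.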

Additional observations from a re-analysis of the deposited data

How the results depend on the processing

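Of the 120 values of the 10 members under 12 alternatives, 112 kept their direction and their side of an adjusted p of 0.05. With DESeq2 1 member, Chac1, passed as lower (log2 fold change -0.26), against 0 in every other setting, and 0 members passed as higher or met the limits of the study's methods in any setting. The sign turned only when 1 nerve was left out, for Atf4 (-0.032 to 0.035), Ppp1r15a (-0.087 to 0.061), Ddit4 (-0.11 to 0.021) and Asns (-0.037 to 0.0019), all of them close to 0.

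Of the related genes, 1 was higher and 1 lower. The number higher fell to 0 with either limma fit and with the replicate block, and was 0 to 2 with a nerve left out. The number lower was 2 with DESeq2, and 1 to 2 with a nerve left out. Sqstm1 turned sign without TMM (0.0012), with limma on log2(FPKM + 0.1) (0.0020) and on log2(FPKM + 1) (0.0020), and with a nerve left out (-0.055 to 0.023). So did Eif2ak4 (-0.082 to 0.0058), Eif2s3 (-0.0058 to 0.075) and Aars (-0.063 to 0.0050) with a nerve left out. With the replicate block, which groups nerves by the number in their titles and not by a known rat, no member changed its call. In that fit 300 genes in all had an adjusted p under 0.05 against 387. That number was 507 with DESeq2, the setting that called Chac1, 242 and 256 with limma and a pseudocount of 0.1 and 1, and 179 to 392 with a nerve left out, fewest without crushed nerve 1. What caused these changes was not tested.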
